A study of Mus musculus with 4 samples.

Results

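Clones 15C7 and 19H5 of C57BL/6 hepatocyte origin were compared across the 4 RNA-seq libraries of the study. Each clone gave 1 library of hepatocyte-derived biliary cells in 2D culture (2D_Bil) and 1 library of hepatocytes in 3D culture (3D_Hep), and no treatment was applied to any culture. Culture format went with cell state in both clones. The labels give clone numbers with no donor animal or experiment, so each clone stands for itself. The p-values rest on these 4 libraries alone, in which technical and biological spread cannot be told apart. Expression was given as TPM (the length-corrected share of each library that a gene takes). Of 24493 gene symbols, 12336 reached 1 TPM in at least 2 libraries, and the 11916 of these on autosomes were compared. Pairs of values are given below as 15C7 then 19H5, and differences are 15C7 minus 19H5 on the log2(TPM + 1) scale.

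Hepatocytes and bile duct cells arise from a common progenitor, and hepatocytes can take on a biliary state in culture or after injury. Hepcidin, the product of Hamp, is a hepatocyte hormone that lowers iron export from other cells. BMP ligands switch on its gene through receptors and SMAD proteins, and interleukin 6 does so through STAT3. The farnesoid X receptor, encoded by Nr1h4, is the nuclear receptor through which liver cells sense bile acids and restrain their synthesis. Aebp1 encodes a secreted protein that binds collagen, and Crip1 a small LIM-domain protein.

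Hamp had the largest difference that both states shared, and the stretch before its start holds the kinds of motif through which BMP and STAT3 signals are known to act on it. The promoters of Hamp, Aebp1 and Reg3b are shown because the genes are among the 12 with the largest shared difference in favour of 15C7 and each holds at least one of these motifs. The sequences are from RefSeq on the GRCm38.p6 build and cover the 250 bases before the annotated start, read in the direction of the gene, with GGCGCC and TTCNNNGAA in capitals. Both motifs read the same on either strand and do not overlap here. The Hamp window lies at chr7:30944030-30944279 on the minus strand, the Aebp1 window at chr11:5861616-5861865 on the plus strand and the Reg3b window at chr6:78370635-78370884 on the plus strand.
Hamp: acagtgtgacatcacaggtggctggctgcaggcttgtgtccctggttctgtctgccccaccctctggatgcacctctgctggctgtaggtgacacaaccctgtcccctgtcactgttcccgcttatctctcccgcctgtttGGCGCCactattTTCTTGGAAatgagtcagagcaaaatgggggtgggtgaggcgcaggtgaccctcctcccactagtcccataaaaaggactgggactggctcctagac
Aebp1: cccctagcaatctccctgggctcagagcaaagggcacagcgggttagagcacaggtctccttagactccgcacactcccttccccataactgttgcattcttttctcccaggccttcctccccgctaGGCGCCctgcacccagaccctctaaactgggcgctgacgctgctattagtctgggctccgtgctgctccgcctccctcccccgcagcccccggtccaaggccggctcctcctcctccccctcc
Reg3b: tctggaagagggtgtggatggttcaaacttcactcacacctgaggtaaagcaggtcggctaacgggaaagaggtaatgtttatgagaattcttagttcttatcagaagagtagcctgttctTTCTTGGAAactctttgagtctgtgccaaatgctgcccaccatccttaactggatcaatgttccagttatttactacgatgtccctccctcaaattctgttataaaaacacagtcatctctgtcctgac
In Hamp, GGCGCC began 109 bases and TTCNNNGAA 97 bases before the start. In Aebp1, GGCGCC began 123 bases before the start, and in Reg3b TTCNNNGAA began 129 bases before it. Over 32851 windows of the same length, 9.59% held GGCGCC and 7.02% held TTCNNNGAA. Promoters were found for 12 of the 14 genes looked up (the 12 just named as a set, with Nr1h4 and Crip1), and the windows of the other 9 held neither motif. A match describes these letters and is not evidence of binding.

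The main comparison asked which transcripts differed between the clones with cell state held in the model. No autosomal gene passed at an adjusted p under 0.05 in limma with cell state as a term: 0 were called higher in 15C7 (0.0%) and 0 higher in 19H5 (0.0%). Without adjustment 1546 genes (13.0%) had a p under 0.05, of which 1056 (8.86%) were higher in 15C7 and 490 (4.11%) higher in 19H5. This split was 843 and 648 after median-of-ratios scaling and 746 and 727 after quantile normalization. The fit had 1 residual and 2.3 prior degrees of freedom. The error of a gene joins how far its clone difference disagreed between the states with a variance drawn from all genes. The variance drawn from all genes has the larger weight, so a small p does not rest on the libraries of that gene alone. Hamp had the smallest adjusted p, 0.0796, and it alone passed when TPM was rescaled by median-of-ratios factors (adjusted p = 0.0453). The results below are therefore given by size, as levels in each library.

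The difference had the same sign in both states for 7505 genes (63.0%). Taken over genes, whose values come from the same libraries and are no replicates, the 2D_Bil and the 3D_Hep difference correlated at r = 0.395 (n = 11916 genes), or 0.437 over 11732 genes without short RNA entries. Taken singly, 2D_Bil held 557 genes (4.67%) at least 1 higher in 15C7 and 236 (1.98%) at least 1 higher in 19H5, and 3D_Hep held 584 (4.9%) and 303 (2.54%). Differences of at least 1 in favour of 15C7 in both states were found for 206 genes (1.73%), and in favour of 19H5 for 86 (0.722%), against 181 and 96 after median-of-ratios scaling and 155 and 108 after quantile normalization. Just inside these limits stood Ctnna2 at 1.003 and Apobec3 at -1.003, and just outside stood Cd59a at 0.999 and Sugct at -1.0 after rounding. Of the 206 genes, 69 stayed under 1 TPM in both 19H5 libraries and so entered the comparison only through 15C7, as 22 of the 86 did through 19H5. All 4 libraries reached 1 TPM for 80 and 41 genes.

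**Figure D1:**
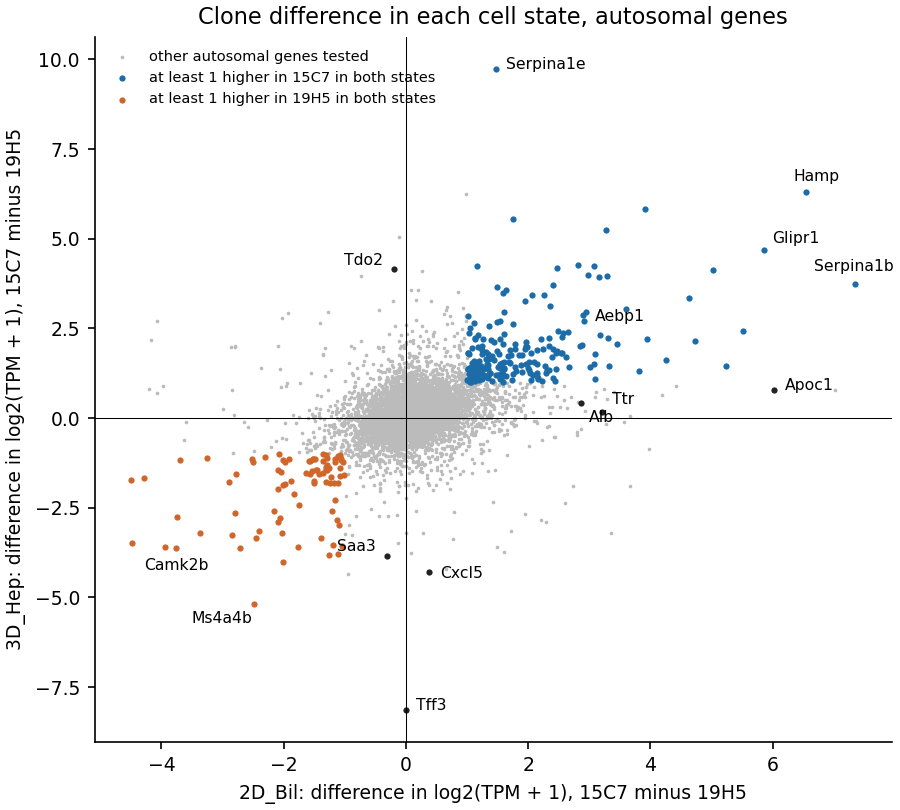
Each point is 1 autosomal gene, with its difference in log2(TPM + 1) between the clones (15C7 minus 19H5) in 2D_Bil on the x axis and in 3D_Hep on the y axis. Blue points are the 206 genes at least 1 higher in 15C7 in both states and orange points the 86 at least 1 higher in 19H5, with Hamp far out on both axes, while black points are named genes outside these classes, such as Tff3 (0 in 2D_Bil and -8.13 in 3D_Hep) and Apoc1 (6.03 and 0.78).

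Among the shared differences Hamp stood first. Its level was 1390 and 13.9 TPM in 2D_Bil and 114 and 0.448 TPM in 3D_Hep, so both 15C7 libraries lay above both 19H5 libraries. The differences were 6.55 in 2D_Bil and 6.31 in 3D_Hep, a mean of 6.43 ± 0.13 (SE from limma, n = 2 libraries a clone). Here and below this SE draws on the variance of all genes, so it is not the spread of the state differences alone. Aebp1 was at 200 and 25.0 TPM in 2D_Bil and at 76.5 and 9.07 TPM in 3D_Hep. Its differences of 2.95 and 2.94 were nearly equal in the states (mean 2.95 ± 0.11, SE from limma, n = 2). Crip1 behaved alike in its levels, with 277 and 36.5 TPM in 2D_Bil and 57.9 and 7.07 TPM in 3D_Hep. Its mean difference was 2.88 ± 0.11 (SE from limma, n = 2). For these genes every 15C7 library was above every 19H5 library, although levels were lower in 3D_Hep than in 2D_Bil in both clones.

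The other genes with the largest shared difference in favour of 15C7 had varied roles. Glipr1, of the CAP family of secreted and membrane proteins, was at 88.3 and 0.539 TPM in 2D_Bil and at 25.0 and 0 TPM in 3D_Hep. Bok, a member of the Bcl-2 family of cell death regulators, was at 23.3 and 1.47 TPM, then 16.2 and 0.102 TPM. Mrap, an accessory protein of the melanocortin 2 receptor, was at 19.6 and 1.30 TPM, then 89.7 and 4.97 TPM. Mrap was thus higher in the 3D_Hep library of each clone, the reverse of Hamp. Timp3, a matrix-bound inhibitor of metalloproteinases, was at 12.1 and 0.0833 TPM in 2D_Bil and at 11.8 and 0.551 TPM in 3D_Hep. Fam25c was at 11.9 and 0.628 TPM, then 14.8 and 0 TPM. Reg3b, a secreted lectin that binds bacteria, was at 8.63 and 0 TPM in 2D_Bil and at 1763 and 45.2 TPM in 3D_Hep. In Reg3b the clone groups overlapped, because the 19H5 library of 3D_Hep was above the 15C7 library of 2D_Bil.

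Some transcripts were present in one clone and nearly absent in the other, with at least 5 TPM in both libraries of the first and under 0.5 TPM in both of the second. In 15C7 these were 4 of the 11916 genes (0.0336%). Smim22, a small membrane protein, was at 14.0 TPM in 2D_Bil and 55.7 TPM in 3D_Hep, and was listed at 0 in both 19H5 libraries. Bmp8b, a ligand of the TGF-beta superfamily, was at 24.4 and 0.0276 TPM, then 11.3 and 0.221 TPM, and its value is uncertain because a close copy, Bmp8a, lies beside it. Cul9, a cullin of a ubiquitin ligase, was at 6.77 and 0.0292 TPM, then 5.52 and 0 TPM. The predicted gene Gm19990, named here outside the rule for named genes and after its values were seen, was at 31.4 and 16.5 TPM in 15C7 and listed at 0 in 19H5. In the other direction there were 7 (0.0587%). Camk2b, the beta subunit of calcium/calmodulin-dependent kinase II, was at 0.260 and 18.5 TPM in 2D_Bil and at 0.0398 and 11.6 TPM in 3D_Hep. The other 6 were short RNA entries (Snora44, Snord42a, Mir1195, Mir23a, Mir343 and Snord35a), listed at 0 in both 15C7 libraries and at 5.32 to 21.3 TPM in 19H5. Levels of such short entries are uncertain in a table of gene TPM. They made up 13 of the 206 genes (0.109% of all tested) and 14 of the 86 (0.117%). Of all 11916 genes tested, 184 were such entries. Their share was thus larger in both sets than over all genes tested, and largest among the 86.

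Nr1h4 was higher in 19H5. Its level was 36.3 and 107 TPM in 2D_Bil and 16.5 and 48.0 TPM in 3D_Hep, and both 19H5 libraries were above both 15C7 libraries. The difference was -1.53 in 2D_Bil and -1.49 in 3D_Hep (mean -1.51 ± 0.11, SE from limma, n = 2). Crym, a thyroid hormone binding protein, was at 2.43 and 21.5 TPM, then 3.71 and 57.0 TPM. Lgals2, a galectin, was at 110 and 591 TPM in 2D_Bil and at 3.59 and 39.9 TPM in 3D_Hep, so the clone groups overlapped across the states. Ms4a4b, a membrane protein known from T cells, was at 3.88 and 26.3 TPM, then 0.222 and 43.9 TPM. En2, a homeobox factor, was at 2.11 and 12.9 TPM, then 0.517 and 8.07 TPM. Raet1e, a ligand of the NKG2D receptor of natural killer cells, was at 2.98 and 15.9 TPM, then 0 and 6.47 TPM. Annexin A1 (Anxa1), a phospholipid-binding protein, was at 232 and 689 TPM, then 14.4 and 44.6 TPM, a difference of -1.57 in both states.

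**Figure D2:**
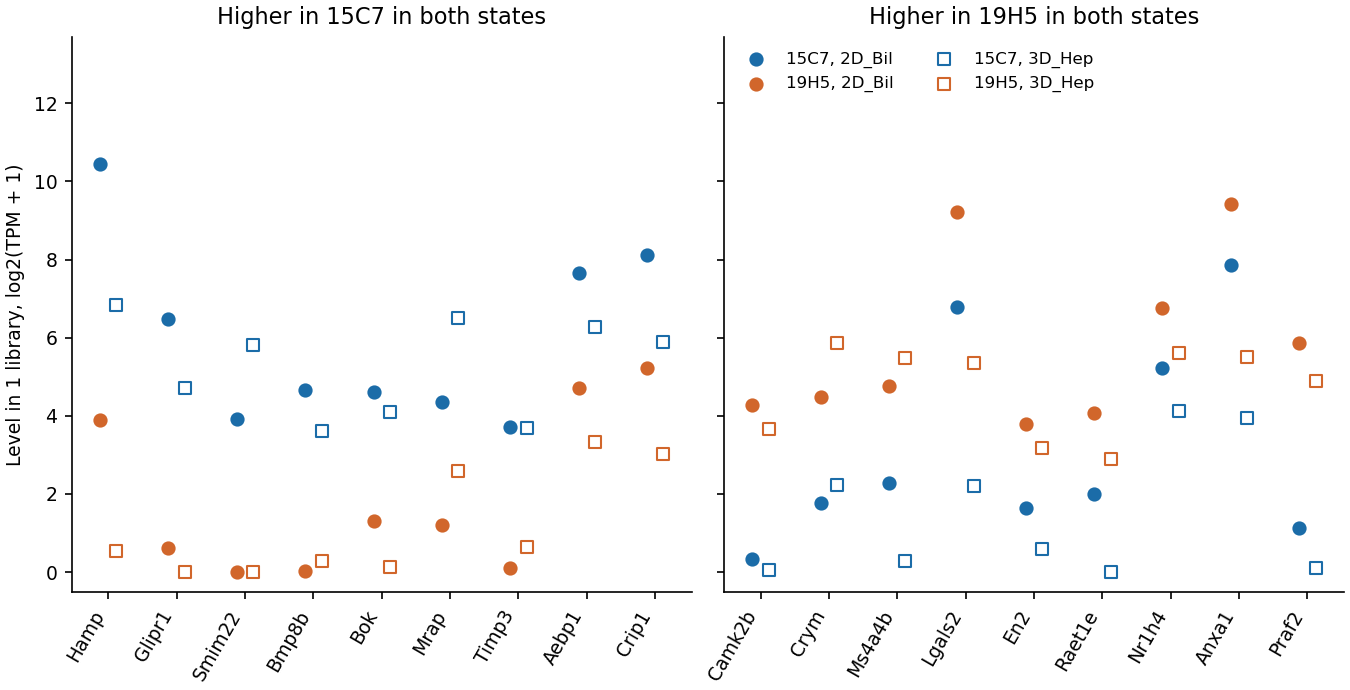
The y axis gives the level of a gene in 1 library as log2(TPM + 1), and the x axis the genes; filled circles are 2D_Bil and open squares 3D_Hep, blue for 15C7 and orange for 19H5, with 1 library per symbol. In each state the blue symbol lies above the orange one in the left panel and below it in the right panel, with Hamp at 1390 and 13.9 TPM in 2D_Bil at the top left.

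Praf2, a membrane protein of the PRA1 family, lies on the X chromosome and was not among the autosomal genes tested. It was at 1.2 and 57.6 TPM in 2D_Bil and at 0.0781 and 28.6 TPM in 3D_Hep, differences of -4.74 and -4.78. Other sex-linked genes also separated the clones. The Y-linked genes Ddx3y, Eif2s3y, Kdm5d and Uty were at 4.56 to 43.7 TPM in the 15C7 libraries and at 0 to 0.0602 TPM in the 19H5 libraries. Xist, the RNA that silences one X chromosome in female cells, was at 0.0293 TPM or less in all 4 libraries. BC002163, a symbol that could not be placed on a chromosome and was named after its values were seen, was at 1.23 and 118 TPM, then 0 and 109 TPM.

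Genes around hepcidin were described from a list of 36, of which 32 were tested. None was called, 8 had an unadjusted p under 0.05 in favour of 15C7 and 1 in favour of 19H5, against 8.86% and 4.11% of all genes. Hamp, Bmp6 and Id3 were at least 1 higher in 15C7 in both states, where 1.73% of all genes were. In favour of 19H5 the list held 0 such genes, beside 0.722% of all genes. Bmp6, the BMP ligand best known to control hepcidin, was at 23.4 and 1.86 TPM in 2D_Bil and at 3.12 and 0.193 TPM in 3D_Hep. Id3, an inhibitor of helix-loop-helix factors and a target of BMP signals, was at 634 and 293 TPM, then 16.7 and 1.81 TPM. Its clone groups overlapped across the states, since the 19H5 library of 2D_Bil was above the 15C7 library of 3D_Hep. Id1, a related inhibitor and target, was at 665 and 505 TPM, then 66.8 and 51.1 TPM, with differences of 0.40 and 0.38. Atoh8, a helix-loop-helix factor, was at 79.4 and 12.4 TPM in 2D_Bil and at 2.60 and 1.54 TPM in 3D_Hep. Smad6, which inhibits BMP receptors, was at 37.2 and 13.9 TPM, then 1.63 and 1.53 TPM. Smad5, which carries the BMP signal, was at 21.8 and 12.8 TPM, then 12.9 and 7.34 TPM, and Tmprss6, a protease that restrains hepcidin, at 4.52 and 0.636 TPM, then 113 and 74.7 TPM. Tfr2, the second transferrin receptor, was at 23.7 and 10.3 TPM in 2D_Bil and, the other way, at 158 and 212 TPM in 3D_Hep. Other members were higher in 19H5. Slc40a1 was at 24.2 and 47.5 TPM, then 27.0 and 27.3 TPM, and Slc39a14 at 41.0 and 59.2 TPM, then 121 and 144 TPM. The list had median differences of 0.29 in 2D_Bil and 0.26 in 3D_Hep, beside 0.07 and 0.06 over all genes tested.

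Bile acid genes differed in both directions. Of 34 listed genes 27 were tested, with a median of 0.37 in 2D_Bil and -0.11 in 3D_Hep. Besides Nr1h4 in favour of 19H5, Fgfr4 and Slc51b reached 1 in both states in favour of 15C7. Over all genes 0.722% did so in favour of 19H5 and 1.73% in favour of 15C7. Fgfr4, the receptor through which an intestinal hormone restrains bile acid synthesis, was at 67.5 and 20.1 TPM in 2D_Bil and at 40.1 and 13.3 TPM in 3D_Hep. Slc51b, a subunit of a bile acid exporter and a known target of the receptor encoded by Nr1h4, was at 8.65 and 0.945 TPM, then 2.29 and 0.291 TPM. It was under 1 TPM in both 19H5 libraries and so entered the comparison only through 15C7. The listed genes Slc51a and Nr0b2 did not pass the filter, at 0.0572 TPM or less and 0.553 TPM or less in every library. Abcb11, the canalicular bile salt pump and another known target, was at 0.121 and 0.159 TPM in 2D_Bil and at 9.17 and 9.96 TPM in 3D_Hep. Cyp8b1, an enzyme of bile acid synthesis, was listed at 0 in both 2D_Bil libraries and was at 9.55 and 1.44 TPM in 3D_Hep. Nr5a2, a nuclear receptor of this pathway, was at 0.557 and 0.458 TPM, then 22.1 and 9.75 TPM.

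Matrix genes were described in the same way, from a list that was set to include Aebp1. Of 34 tested, 15 had an unadjusted p under 0.05 in favour of 15C7 and 0 in favour of 19H5, where 8.86% and 4.11% of all genes did, and the medians were 0.39 and 0.70. Aebp1, Timp3, Col5a1, Dcn and Thbs1 reached 1 in both states in favour of 15C7, where 1.73% of all genes did. Timp3 and Col5a1 were under 1 TPM in both 19H5 libraries and so entered the comparison only through 15C7. Col5a1, a fibrillar collagen chain, was at 8.12 and 0.547 TPM in 2D_Bil and at 3.65 and 0.332 TPM in 3D_Hep. Thbs1, the adhesive glycoprotein thrombospondin 1, was at 46.4 and 20.1 TPM, then 2.80 and 0.660 TPM. Dcn, the proteoglycan decorin, was at 2.38 and 0 TPM in 2D_Bil and at 178 and 2.79 TPM in 3D_Hep. Fn1, fibronectin, was at 975 and 323 TPM, then 1813 and 971 TPM, and Tnc, tenascin C, at 56.5 and 28.1 TPM, then 17.1 and 1.76 TPM. Thbs2 was at 1.26 and 0.143 TPM, then 6.49 and 0.0465 TPM. Not every member went this way: Loxl2 had differences of -0.26 in 2D_Bil and -0.90 in 3D_Hep, and Col6a1 of 0.00 and -0.52. Dcn is also a fibroblast marker. Of 10 fibroblast and stellate cell markers only Dcn passed the filter, and the other 9, which include Col1a2, Col3a1, Lum, Pdgfra and Des, were at 1.17 TPM or less in every library, with a summed level over all 10 of 4.36 and 1.28 TPM in 2D_Bil and 180 and 3.54 TPM in 3D_Hep. The 5 endothelial markers summed to at most 0.371 TPM in a library. The 6 macrophage and leukocyte markers summed to 5.99 and 13.3 TPM, then 2.42 and 2.76 TPM, with Cd3e at 0 and Ptprc at 0.0598 TPM or less.

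Markers of the biliary state split between the clones. Of 23 tested, 5 had an unadjusted p under 0.05 in favour of 15C7 and 5 in favour of 19H5, where 8.86% and 4.11% of all genes did, and the medians were -0.33 in 2D_Bil and 0.04 in 3D_Hep. The bile duct keratins Krt7 and Krt19 had higher levels in 19H5 in both states. Krt7 was at 259 and 589 TPM in 2D_Bil and at 3.90 and 56.4 TPM in 3D_Hep. Krt19 was at 752 and 1615 TPM, then 1.12 and 15.9 TPM. Both keratins were at far lower levels in 3D_Hep than in 2D_Bil in each clone. Tspan8, a membrane tetraspanin, was at 504 and 967 TPM, then 6.97 and 62.0 TPM, and Mmp7, a metalloproteinase, at 0.601 and 2.09 TPM, then 0.733 and 34.2 TPM. Other biliary markers were higher in 15C7. Prom1, a membrane glycoprotein of progenitor cells, was at 16.7 and 1.90 TPM, then 3.34 and 0.327 TPM. Cldn3, a tight junction protein, was at 91.0 and 35.1 TPM, then 56.5 and 21.4 TPM. Sox9, a factor of the biliary lineage, was at 47.6 and 43.4 TPM in 2D_Bil and at 29.2 and 15.3 TPM in 3D_Hep. Msln, which is known from mesothelial cells, was at 324 and 828 TPM, then 2.76 and 9.92 TPM, while the mesothelial markers Wt1 and Upk3b were at 0.104 TPM or less in every library.

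A second question was which differences were seen in one state and not in the other. A gene was placed there when it differed by at least 1 in one state and by under 0.5 in the other. With 1 library of each clone in each state, whether a difference itself differed between the states could not be tested, so these are descriptions. In 2D_Bil only, 178 genes (1.49%) were higher in 15C7 and 74 (0.621%) higher in 19H5. In 3D_Hep only, 234 (1.96%) were higher in 15C7 and 124 (1.04%) higher in 19H5.

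Genes higher in 15C7 in 2D_Bil only included hepatocyte products. Alb, serum albumin, was at 140 and 18.4 TPM in 2D_Bil and at 15033 and 11217 TPM in 3D_Hep. Ttr, the thyroid hormone carrier transthyretin, was at 1165 and 125 TPM, then 4335 and 3867 TPM. Nr1i2, the xenobiotic receptor PXR, was at 9.0 and 0.309 TPM, then 6.76 and 5.77 TPM, and Gjb2, the gap junction protein connexin 26, at 14.9 and 0.652 TPM, then 166 and 187 TPM. That the 3D_Hep libraries of the clones were close to each other for all of these follows from the rule for this class. The rule also named Hist2h3c1 at 10.9 and 0 TPM, then 33.5 and 36.2 TPM, a histone gene with near-identical copies and so uncertain, and the short entry Mir467g.

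Of 40 secreted protein genes tested, 9 were in this class and 0 in its counterpart in favour of 19H5. Over all genes tested the shares were 1.49% and 0.621%. The list's median difference was 0.70 in 2D_Bil and 0.34 in 3D_Hep, beside 0.07 and 0.06 over all genes tested. Besides Alb and Ttr the 9 included Apoa1, an apolipoprotein of high density lipoprotein, at 243 and 48.4 TPM, then 25940 and 30945 TPM. F2, prothrombin, was at 48.8 and 10.3 TPM, then 1017 and 1121 TPM. Fga and Fgb, fibrinogen chains, were at 270 and 84.4 TPM and at 485 and 139 TPM in 2D_Bil. Apoc1 and Ambp, also secreted, stayed outside the class with differences of 0.78 and 0.89 in 3D_Hep, beside 6.03 and 4.42 in 2D_Bil. Apoc1 was at 359 and 4.53 TPM, then 8572 and 4975 TPM, and Ambp at 171 and 7.07 TPM, then 6254 and 3379 TPM. The alpha-1 antitrypsin genes differed in both states. Serpina1b was at 251 and 0.540 TPM, then 8150 and 609 TPM, Serpina1a at 145 and 2.20 TPM, then 2990 and 560 TPM, and Serpina1d at 7.96 and 0.0648 TPM, then 1038 and 54.2 TPM. Serpina1c was at 128 and 0 TPM, then 4452 and 2593 TPM, and Serpina1e at 1.77 and 0 TPM, then 2498 and 1.92 TPM. These copies are nearly identical, so how reads were split among them is uncertain, but each of the 5 was higher in 15C7 in both states.

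Transcription factors of hepatocytes showed 4 of 28 genes in the same 2D_Bil class in favour of 15C7, where 1.49% of all genes were. In favour of 19H5 there were 0, where 0.621% of all genes were. The medians of this list were 0.33 in 2D_Bil and 0.02 in 3D_Hep, beside 0.07 and 0.06 over all genes tested. Rxra, the partner of many nuclear receptors, was at 38.0 and 14.7 TPM in 2D_Bil and at 134 and 148 TPM in 3D_Hep. Foxa3, a forkhead factor of liver, was at 16.3 and 4.38 TPM, then 72.6 and 53.3 TPM. Onecut2, a liver and biliary factor, was instead at least 1 higher in 15C7 in both states, at 7.92 and 3.40 TPM, then 11.7 and 5.11 TPM. Nr1h4, also on this list, was at least 1 higher in 19H5 in both states, with differences of -1.53 and -1.49. Foxa2 was higher in 19H5 by less, with -0.20 and -0.35.

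The protein-coding genes named as higher in 19H5 in 2D_Bil only were at 3.58 TPM or less in both 3D_Hep libraries. Clca3a1, of the calcium-activated chloride channel regulators, was at 1.91 and 34.1 TPM, then 3.21 and 3.58 TPM. Tigit, an inhibitory receptor known from lymphocytes, was at 4.55 and 43.1 TPM, then 1.97 and 1.47 TPM, while the lymphocyte marker Cd3e was at 0 in all 4 libraries. Padi1, which converts arginine to citrulline in proteins, was at 4.01 and 30.5 TPM, then 0.0210 and 0.0942 TPM. Lgals4, an intestinal galectin, was at 1.92 and 16.5 TPM, then 2.00 and 2.58 TPM.

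Cell cycle genes were numerous among those different in 3D_Hep only. Of 45 tested, 26 were in the class in favour of 15C7 and 0 in favour of 19H5, where 1.96% and 1.04% of all genes were. The median difference was -0.11 in 2D_Bil and 1.10 in 3D_Hep. Mki67, a marker of cycling cells, was at 20.5 and 21.4 TPM in 2D_Bil and at 4.55 and 0.765 TPM in 3D_Hep. Cdc20, which activates the anaphase-promoting complex, was at 80.0 and 74.1 TPM, then 11 and 2.60 TPM, and Ccnb1, cyclin B1, at 66.1 and 57.6 TPM, then 6.13 and 1.35 TPM. Mcm3 and Mcm5 of the replicative helicase were at 11.2 and 2.79 TPM and at 8.75 and 2.11 TPM in 3D_Hep. The levels were low in 3D_Hep in both clones, and with a pseudocount of 5 in place of 1 only 3 genes stayed in the class. Ccnd1, cyclin D1, was at 645 and 813 TPM, then 32.8 and 30.6 TPM. Inhibitors of the cycle differed in both directions in 3D_Hep. Cdkn2a was at 175 and 300 TPM, then 35.0 and 73.9 TPM, and Cdkn1b at 42.7 and 42.7 TPM, then 16.4 and 26.0 TPM. Cdkn1a was at 224 and 167 TPM, then 102 and 58.8 TPM, and Cdkn2b at 75.9 and 54.9 TPM, then 35.9 and 16.2 TPM. In bulk samples more cycling cells and more transcript per cell cannot be told apart.

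**Figure D3:**
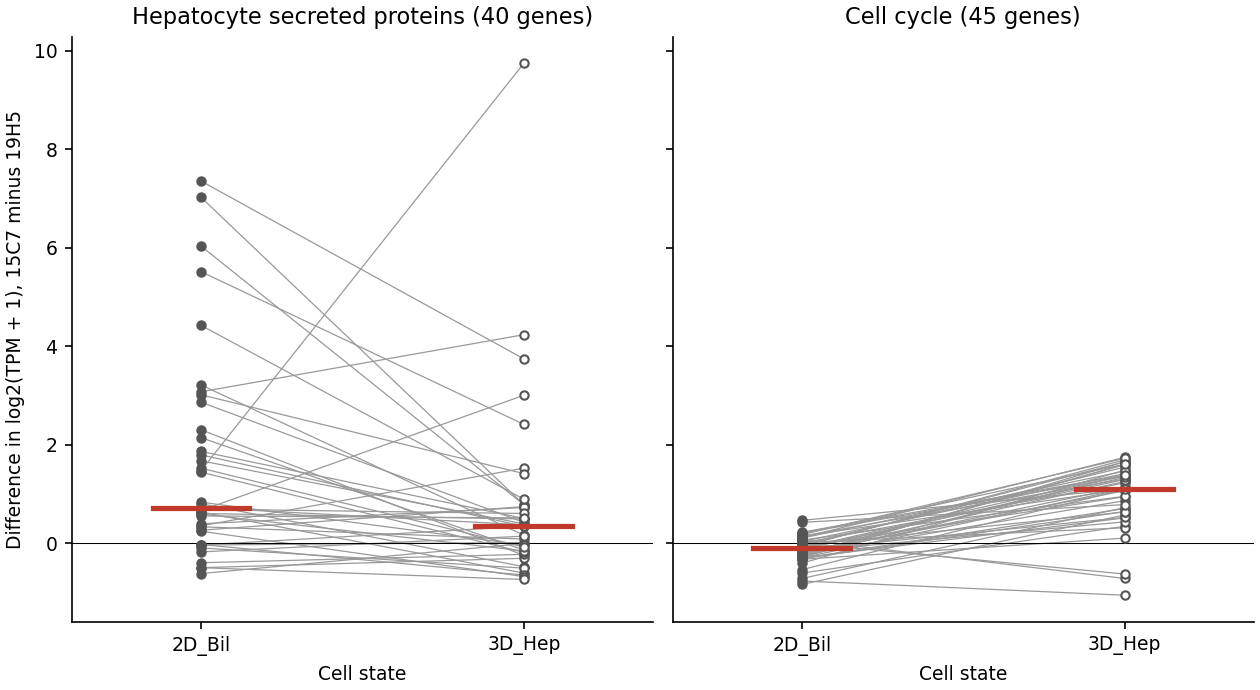
The y axis is the difference in log2(TPM + 1) between the clones (15C7 minus 19H5) and the x axis the cell state; each line joins the values of 1 gene and red bars are medians. The 45 cell cycle genes go from a median of -0.11 in 2D_Bil to 1.10 in 3D_Hep, and the 40 secreted protein genes from 0.70 to 0.34.

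Of the 6 genes named as higher in 15C7 in 3D_Hep only, 3 were protein-coding and 3 short RNA entries (Mir6358, Mir3473f and Mir6922). Tdo2, which starts the breakdown of tryptophan, was at 0.0587 and 0.214 TPM in 2D_Bil and at 105 and 4.95 TPM in 3D_Hep. Cdo1, which oxidises cysteine, was at 0.559 and 0.357 TPM, then 355 and 29.0 TPM. Mup20, a major urinary protein whose family has near-identical copies and is uncertain, was at 0.648 and 0.468 TPM, then 573 and 58.1 TPM. Tdo2, Cdo1 and Mup20 were under 1 TPM in both 2D_Bil libraries.

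The genes named as higher in 19H5 in 3D_Hep only were 5 protein-coding genes and the short entry Scarna17. Tff3, a trefoil peptide of mucous surfaces, was listed at 0 in both 2D_Bil libraries and was at 1.89 and 810 TPM in 3D_Hep. Saa3, a serum amyloid A protein of the acute phase, was at 1000 and 1244 TPM, then 2688 and 38391 TPM. Cxcl5, a chemokine for neutrophils, was at 1252 and 962 TPM, then 9.86 and 212 TPM. Inmt, which methylates indoles, was at 0.212 and 0 TPM, then 2.62 and 32.6 TPM. The histone gene Hist2h2aa2 and Scarna17 were listed at 0 in the 15C7 library of 3D_Hep and were at 12.5 and 10.2 TPM in that of 19H5.

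Acute phase genes as a list had medians of -0.14 in 2D_Bil and -0.40 in 3D_Hep. Of 34 tested, 5 had an unadjusted p under 0.05 in favour of 19H5 and 2 in favour of 15C7, where 4.11% and 8.86% of all genes did. Orm2, an acid glycoprotein of plasma, was at 7.76 and 17.2 TPM, then 4893 and 10964 TPM. Cxcl1, a chemokine for neutrophils, was at 442 and 958 TPM, then 90.9 and 324 TPM. Lcn2, which binds bacterial iron carriers, was at 1446 and 2476 TPM, then 3653 and 9104 TPM. Saa1 was at 35.6 and 56.1 TPM, then 10086 and 27694 TPM, and Ccl2, a chemokine for monocytes, at 2715 and 3332 TPM, then 59.7 and 400 TPM. Other members had higher levels in 15C7 in both states: Hamp, the fibrinogen chains Fga, Fgb and Fgg, with differences of 0.72 and 0.37 for Fgg, and Serpina3n, a protease inhibitor, with 0.35 and 1.52.

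**Figure D4:**
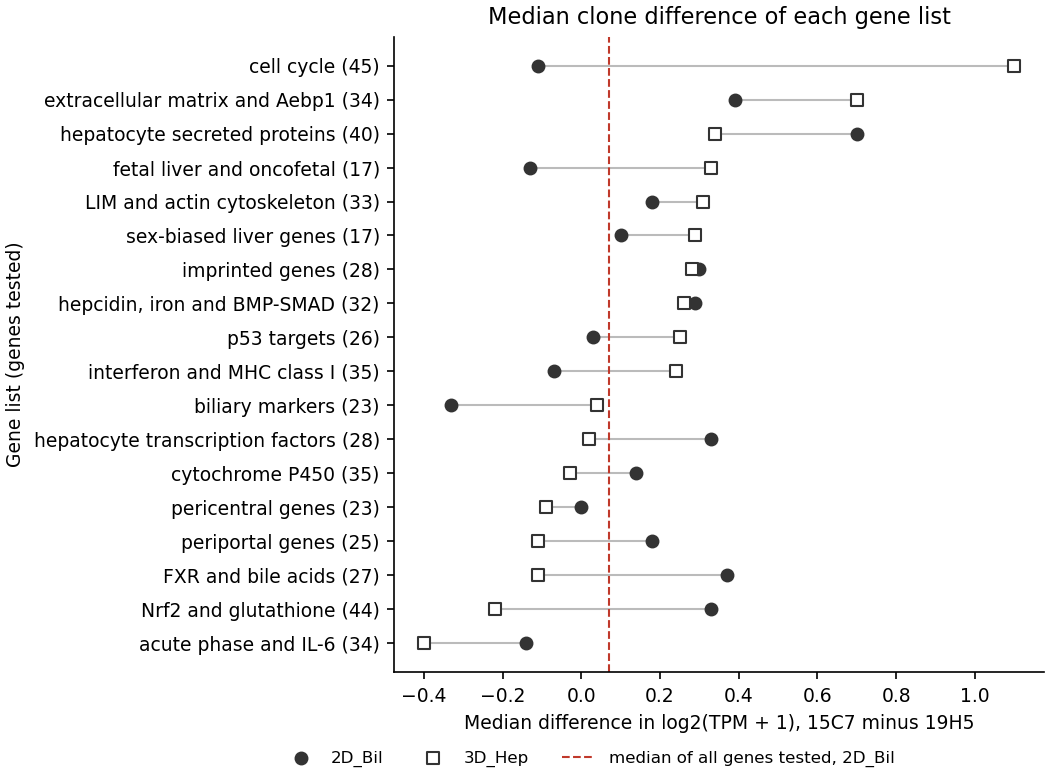
The x axis is the median difference in log2(TPM + 1) between the clones (15C7 minus 19H5) of each gene list with at least 5 genes tested, the y axis the list with its number of genes, filled circles 2D_Bil and open squares 3D_Hep, with a dashed line at the 2D_Bil median of all genes, 0.07. The cell cycle list has the widest gap, -0.11 against 1.10, matrix genes lie on the 15C7 side in both states, and the acute phase list is the lowest in 3D_Hep at -0.40.

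The difference between the clones also varied with the chromosome, and did so alike in both states. Medians over the 19 autosomes ran from -0.09 to 0.28 in 2D_Bil and from -0.17 to 0.31 in 3D_Hep, and the medians of the states correlated at r = 0.907 across chromosomes (n = 19, chromosomes of the same 4 libraries). On chromosome 13 (473 genes) the median was 0.28 in 2D_Bil and 0.20 in 3D_Hep, and on chromosome 15 (506 genes) 0.25 and 0.26. On chromosome 1 (700 genes) both medians were 0.19, and 73.7% and 72.3% of its genes had a higher level in 15C7. The lowest medians were those of chromosome 19 (455 genes), at -0.09 and -0.17, where 37.1% and 32.3% were higher in 15C7. Over genes with at least 5 TPM in all 4 libraries chromosome 13 stood at 0.30 and 0.23 and chromosome 19 at -0.12 and -0.20. After median-of-ratios scaling chromosome 13 stood at 0.20 and 0.17 and chromosome 19 at -0.16 and -0.22, while the median of all genes went from 0.07 and 0.06 to 0.00 and 0.02.

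Medians over 232 runs of about 50 neighbouring genes, pooled over all autosomes, correlated between the states at r = 0.725. This r includes the differences between chromosomes, so it does not measure agreement within them. The run from Zscan26 to Ripor2 on chromosome 13, for example, was at 0.34 in 2D_Bil and -0.24 in 3D_Hep. The highest in 2D_Bil was a run on chromosome 1 from Nuf2 to Ifi204 (mm10 positions 169497934 to 173767069) at 0.56, with 0.31 in 3D_Hep. On chromosome 13 the run from Tmem14c to Arl10 (41016250 to 54582765) was at 0.50 and 0.33. The lowest in 2D_Bil, on chromosome 19 from Mrpl11 to Zfpl1 (4962152 to 6084975), was at -0.21 and -0.31. The SD of the difference over all single genes was 0.58 in 2D_Bil and 0.62 in 3D_Hep. It is a spread of genes and gives no measure of how far medians of runs or chromosomes vary. No test was made of these medians, and DNA copy number was not measured.

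**Figure D5:**
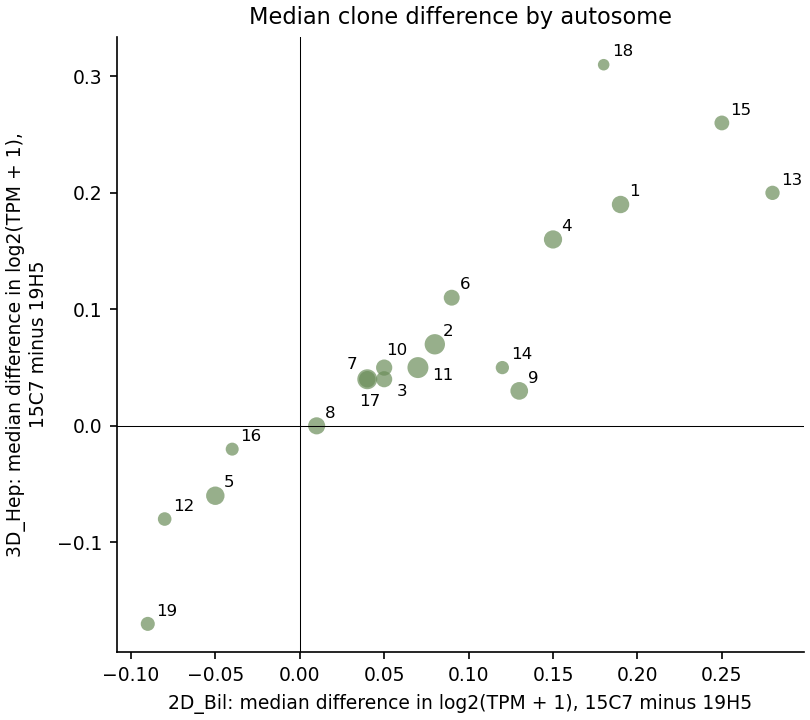
Each point is 1 autosome, labelled by its number and sized by its genes tested, with the median difference in log2(TPM + 1) between the clones (15C7 minus 19H5) in 2D_Bil on the x axis and in 3D_Hep on the y axis. Chromosomes 13, 15, 18, 1 and 4 are high in both states and chromosomes 19, 12, 5 and 16 are below 0 in both, along a line with r = 0.907.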

How the data were processed

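RNA was measured in 4 libraries of mouse cells (total RNA; per the labels' protocols, a Qiagen RNeasy extraction and Novogene libraries). Deposited by the authors were TPM values for 24493 gene symbols. Salmon, mm10 and DESeq2 appear in the submitters' processing notes, without versions and with no role for DESeq2. TPM sums to the same total in every library, so sequencing depth and counting error were unknown and no count model was fitted. From these values log2(TPM + 1) was computed for symbols with at least 1 TPM in at least 2 libraries. Chromosomes came from RefSeq on GRCm38.p6, which matched 23852 symbols directly and 550 by a synonym, with 91 unmatched. Clones were compared over the 11916 autosomal genes with limma 3.58.1 in R 4.3.3 (cell state and clone as terms, eBayes with a trend, 1 residual and 2.3 prior degrees of freedom), with Benjamini-Hochberg adjustment over all of them and calls under 0.05. State is thus the block that pairs the libraries. Lists and scripts also used pandas 2.3.3 and numpy 2.4.6, and figures matplotlib. The fit was tested on simulated data. Medians and counts of lists are descriptions, and genes can be in several lists.

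Genes named were the 12 per direction with the largest smaller-of-both-states difference, 6 per state and direction among the one-state genes, up to 5 per direction present in one clone only, up to 4 per list that passed the size rule in both states, and Hamp, Nr1h4, Aebp1, Crip1 and Praf2. Further list members and genes with opposite differences were named after their values were seen. Symbols of predicted genes and pseudogenes were not named, with 1 exception stated. The genes and lists were chosen with earlier results of these data known. The alternatives tried were pseudocounts of 5 and 0.1, a filter of 5 TPM or none, median-of-ratios scaling, quantile normalization, other eBayes settings, no cell state term, other size limits, fits without the 50 most abundant genes, with all genes of the table, and without each library.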

Additional observations from a re-analysis of the deposited data

Results flagged for a closer look

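The clone difference (15C7 minus 19H5) lay on opposite sides of 0 in the states for the genes and lists below, each with 1 library of a clone in each state. Whether these differences themselves differ between the states was not tested. Values are the difference in 2D_Bil minus that in 3D_Hep, on the log2(TPM + 1) scale.

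Among genes with the higher 15C7 level in 2D_Bil, the gap was 3.68 for Hist2h3c1, 3.44 for Gjb2, 4.67 for Cxcl5, 3.84 for Hist2h2aa2 and 3.49 for Inmt. Among genes with the lower 15C7 level in 2D_Bil it was -3.26 for Tigit, -2.91 for Snord1b, -5.17 for Mir6358 and -4.35 for Tdo2. For each of these 9 genes the smaller of the state differences was under 0.5, so the opposite sign rests on a small value.

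Of the lists, the cell cycle median had the widest gap, -1.21, from -0.11 in 2D_Bil to 1.10 in 3D_Hep. The gap was 0.48 for bile acid genes, 0.55 for Nrf2 and glutathione genes, 0.29 for periportal genes and 0.17 for cytochrome P450 genes. It was -0.37 for biliary markers, -0.31 for interferon and MHC class I genes and -0.46 for fetal liver genes.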

How the results depend on the processing

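Depth is unknown for TPM, and each clone had 1 library a state, so small differences and low genes are the least certain. Without the cell state term, which is the replicate block pairing the libraries, 0 genes were called in either direction, and 119 and 37 had an unadjusted p under 0.05. After median-of-ratios scaling 1 gene, Hamp, was called higher in 15C7 and 0 in 19H5. Without the 50 most abundant genes 1 gene was likewise called higher in 15C7 and 0 in 19H5. The other settings that used all 4 libraries called 0 genes in both directions, with smallest adjusted p values in limma of 0.0679 to 1.0. With each library left out and no state term, 5 to 54 genes were called higher in 15C7 and 3 to 11 in 19H5; such a fit sets 1 library of a clone against libraries of both states, and the lone library is taken to vary like the other clone. Hamp was called in 3 of these 4 fits.

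Counts by size moved with the size limit, the pseudocount and the filter. Genes higher in both states in 15C7 were 369 with a pseudocount of 0.1, 59 with 5, 108 with a filter of 5 TPM and 35 at a difference of 2, and those higher in 19H5 were 137, 32 and 16 with the pseudocounts and the stricter size. Dropping a library leaves 1 state, in which 557 to 584 genes were at least 1 higher in 15C7 and 236 to 303 in 19H5. Median-of-ratios scaling gave 181 and 96, and quantile normalization 155 and 108. Genes different in 2D_Bil only were 150 with a pseudocount of 5, 433 with no filter and 27 at a difference of 2, and in 3D_Hep only 552 and 161 with pseudocounts of 0.1 and 5 and 53 at a difference of 2. Leaving out short RNA entries, a choice made after seeing the data as were the list counts that follow, gave 193 and 72 in both states and 239 and 333 in one state. Cell cycle genes in 3D_Hep only were 3 with a pseudocount of 5 and 25 to 29 under the other settings tried. Matrix genes in both states were 9 and 2 with pseudocounts of 0.1 and 5 and 3 with the filter of 5 TPM. The cause of these shifts was not tested.

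None of 985 values of 140 named genes under settings that used all libraries changed sign. With a library left out and no state term, 10 genes did, over these ranges: Id3 -1.47 to 5.24, Anxa1 -3.53 to 0.39, Krt7 -5.23 to 0.50, Krt19 -6.28 to 2.19, Lect2 -3.06 to 0.39, Cyp3a11 -1.78 to 5.17, Iigp1 -0.95 to 3.60, Orm2 -5.73 to 3.50, Afp -0.60 to 3.77 and Msln -4.66 to 1.77.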

Other observations

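A small set of genes differed by at least 1 in both states but in opposite directions: 36 (0.302%), of which 23 were short RNA entries. Among the other 13, Ccl7, a chemokine for monocytes, was at 611 and 184 TPM (15C7 then 19H5) in 2D_Bil and at 4.96 and 52.2 TPM in 3D_Hep. Gstm1, a glutathione transferase, was at 194 and 89.3 TPM, then 1006 and 2416 TPM, and Amd1, an enzyme of polyamine synthesis, at 6.82 and 28.9 TPM, then 22.3 and 2.08 TPM. Amd1 has near-identical copies and is uncertain. These genes were chosen after their values were seen.

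The imprinted neighbours Igf2, a fetal growth factor, and H19, a noncoding RNA, differed in opposite directions in 3D_Hep. Igf2 was at 0.764 and 0.371 TPM in 2D_Bil and at 2876 and 627 TPM in 3D_Hep, and H19 at 0.873 and 1.05 TPM, then 575 and 2393 TPM. Of 28 imprinted genes tested, 0 reached a difference of 1 in both states, beside 1.73% of all genes in favour of 15C7 and 0.722% in favour of 19H5.

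Interferon and antigen presentation genes were held in 1 list. Of 35 tested, Ifi27, Usp18, Oasl1 and Iigp1 were at least 1 higher in 15C7 in both states, where 1.73% of all genes were. In 2D_Bil only, 3 members were higher in 19H5, beside 0.621% of all genes, and 0 in 15C7, beside 1.49%. The list's medians were -0.07 in 2D_Bil and 0.24 in 3D_Hep, beside 0.07 and 0.06 over all genes tested. Usp18, a brake on interferon signals, was at 18.8 and 3.46 TPM, then 3.17 and 0.917 TPM. H2-K1, a class I histocompatibility gene, was at 355 and 713 TPM, then 460 and 587 TPM, and Psmb9, a subunit of the immunoproteasome, at 4.61 and 10.7 TPM, then 6.52 and 8.72 TPM. Afp, the fetal counterpart of albumin, was at 5.03 and 1.65 TPM, then 124 and 30.7 TPM. In the cytochrome P450 list of 35, Cyp3a11, a major drug-metabolising enzyme, was at 3.77 and 0.0821 TPM, then 318 and 133 TPM, while Cyp2a5 was at 0 and 0.354 TPM, then 24.9 and 171 TPM. Among glutathione genes Gstk1 was at 7.98 and 1.42 TPM, then 41.5 and 11.4 TPM, and Cbr3, a carbonyl reductase, at 20.1 and 42.5 TPM, then 6.60 and 89.1 TPM.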
